A study of Homo sapiens with 5 samples.

Results

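The genes described here encode the enzymes that free arachidonic acid and turn it into leukotrienes, prostaglandins and thromboxane. They are PLA2G4A, ALOX5, ALOX5AP, LTA4H, LTC4S, PTGS1, PTGS2, PTGES2, PTGES3 and TBXAS1. The 10 genes were chosen by name and found by symbol among the 51055 Ensembl gene IDs of the deposited count table, and all 10 were present under their current symbols. They were followed in HL60, an established human promyelocytic leukaemia cell line grown in serum-supplemented medium. ZIP cells (n = 2 libraries) carried a miRZip lentivector, whose hairpin yields an RNA antisense to miR-378a-3p. SCR cells (n = 2) carried the control lentivector, which the labels call empty in one place and scramble in another. Untransduced HL60 cells, UNT (n = 1), received no virus. Per the labels, ZIP and SCR cells were spin-transduced (multiplicity of infection 20, polybrene 8 µg/mL), both vectors held a green fluorescent protein gene, and puromycin (2 µg/mL) was applied from day 3 to day 8. All groups thus share the HL60 background, and SCR and ZIP also share virus and selection, which UNT lacks. The labels do not say that the libraries of a group came from separate transductions or cultures, and the p-values therefore rest on library-to-library spread that may be technical only.

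Arachidonic acid sits in membrane phospholipids until a phospholipase releases it. In the leukotriene branch, 5-lipoxygenase (ALOX5) works with its membrane partner ALOX5AP, also called FLAP, to make leukotriene A4. LTA4H converts this to leukotriene B4, an attractant of neutrophils, and LTC4S joins it to glutathione to make leukotriene C4, the first of the cysteinyl leukotrienes. In the prostanoid branch, the cyclooxygenases PTGS1 and PTGS2 make prostaglandin H2, which terminal synthases turn into prostaglandin E2 or, through TBXAS1, into thromboxane A2. Neutrophils and monocytes are main sources of leukotrienes, and immature myeloid lines such as HL60 are a classical model in which the leukotriene enzymes are studied during maturation.

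Library totals ran from 24406580 to 30925067 counts. Promyelocyte markers (MPO, ELANE, PRTN3, AZU1, CTSG, CD33 and SRGN) summed to 26700 and 26100 CPM (counts scaled to library size with TMM factors) in ZIP, 14200 and 14100 CPM in SCR and 27400 CPM in UNT, so the markers that define the labelled cell type were present in every library. MPO made up most of the sum. Of these 7 markers, 6 were higher and 0 lower in ZIP than in SCR, beside 32.2% higher and 33.2% lower over all genes tested. All 7 were lower in SCR than in UNT, beside 32.2% lower over all genes tested. In ZIP 3 were higher and 3 lower than in UNT. PRTN3 had 3290 and 3180 CPM in ZIP, 821 and 834 CPM in SCR and 3200 CPM in UNT. Markers of other cells that use this pathway were also measured. Of 9 listed monocyte and macrophage markers 8 were found. They summed to 1450 and 1450 CPM in ZIP, 1300 and 1310 CPM in SCR and 348 CPM in UNT, mostly through LYZ, while CD14 stood at 3.50 and 4.18 CPM in ZIP, 54.7 and 53.6 CPM in SCR and 2.09 CPM in UNT. Of these 8 markers, 6 were lower and 1 higher in ZIP than in SCR, beside 33.2% lower and 32.2% higher over all genes tested. Against UNT, 7 were higher and 0 lower in SCR, beside 32.7% higher and 32.2% lower over all genes tested. In ZIP 5 were higher and 0 lower than in UNT, beside 28.5% higher and 29.7% lower. Mature neutrophil markers (6 listed) summed to 167 and 168 CPM in ZIP, 252 and 249 CPM in SCR and 196 CPM in UNT. Of these, 1 was higher in ZIP than in SCR (CXCR2) and 2 were lower, among them CSF3R, which made up most of the sum. CSF3R had 142 and 140 CPM in ZIP, 232 and 228 CPM in SCR and 163 CPM in UNT. Compared with UNT, 1 of the neutrophil markers was higher (CSF3R) and 3 were lower in SCR. In ZIP 0 were higher and 4 lower than in UNT, to be read beside the shares over all genes tested given above. LTF, 1 of those lower, had 0.490 and 0.414 CPM in ZIP, 0.552 and 0.584 CPM in SCR and 7.35 CPM in UNT. Eosinophil markers (5 listed) summed to 110 and 105 CPM in ZIP, 192 and 193 CPM in SCR and 696 CPM in UNT. This list was split between ZIP and SCR, with 1 higher in ZIP (PRG2) and 2 lower (CLC and EPX). PRG2 had 62.9 and 60.3 CPM in ZIP, 34.0 and 35.8 CPM in SCR and 169 CPM in UNT. Megakaryocyte and platelet markers (6 listed) summed to between 4.26 and 6.60 CPM in every library, with PPBP at 0 counts throughout. Basophil and mast cell markers (5 listed) summed to 1.27 and 1.57 CPM in ZIP, 2.01 and 1.98 CPM in SCR and 11.1 CPM in UNT, with TPSAB1 at 0. Whether these shifts have a part in the results below was not tested. In bulk libraries, fewer cells of a type and less RNA per cell cannot be told apart.

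The microRNA that the ZIP hairpin is directed against is shown because its seed, bases 2 to 8 and in capitals here, is what pairs with target mRNAs. It lies at chr5:149732867-149732888 on the plus strand of GRCh38.p14 (sequence from RefSeq).
miR-378a-3p: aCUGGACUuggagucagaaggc

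In ZIP against SCR, the leukotriene branch split: ALOX5 was 1.99-fold higher in ZIP, while its partner ALOX5AP and the next enzyme LTA4H were modestly lower. In the prostanoid branch, PTGS2, TBXAS1 and PTGS1 were lower in ZIP, by 3.53-fold, 2.05-fold and 1.62-fold, and the synthases PTGES2 and PTGES3 were slightly higher. PLA2G4A, which starts both branches, did not pass the test. Of the 10 genes 9 passed the filter on low counts, and of these 3 were higher and 5 lower in ZIP at an adjusted p under 0.05 (edgeR quasi-likelihood test, Benjamini-Hochberg over 14643 genes). Among all genes tested 65.4% were called, 32.2% higher and 33.2% lower, so a called gene was common in this comparison and 8 of 9 is read against that share. The median log2 fold change of the 9 genes was -0.23, beside -0.002 over all genes tested.

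**Figure D1:**
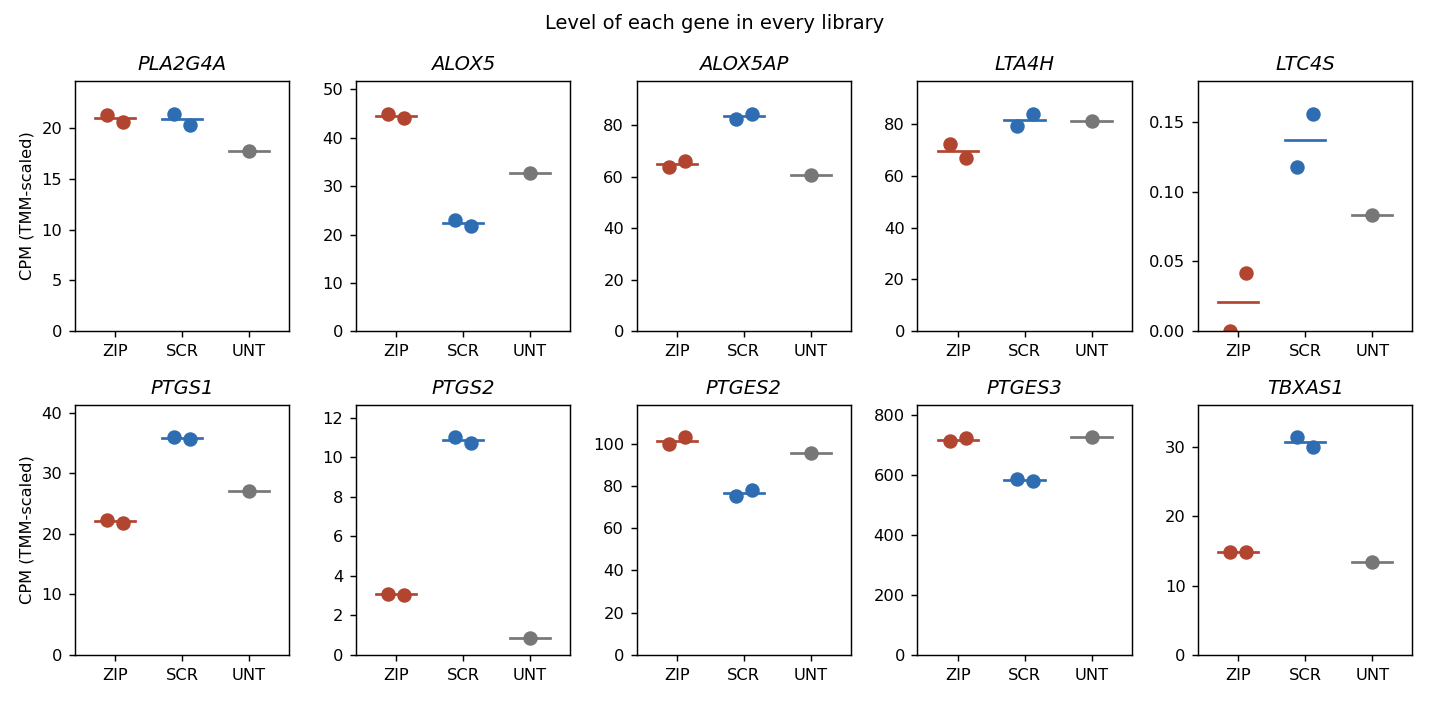
Each panel shows the level of 1 gene in TMM-scaled CPM (linear axis from 0, scaled to each gene), with a point for each library and a bar at the group mean. ZIP, SCR and UNT have 2, 2 and 1 libraries. ALOX5, PTGES2 and PTGES3 are higher in ZIP than in SCR, while PTGS2, TBXAS1, PTGS1 and ALOX5AP are highest in SCR, and LTC4S rests on 0 to 4 counts per library.

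PLA2G4A (ENSG00000116711, chromosome 1, 186828953 to 186988981, plus strand, GRCh38 in GENCODE 29) encodes the calcium-dependent cytosolic phospholipase A2, which frees arachidonic acid. It had 21.3 and 20.6 CPM in ZIP, 21.4 and 20.3 CPM in SCR and 17.7 CPM in UNT. The ZIP and SCR libraries overlapped. Their log2 fold change was 0.01 ± 0.06 (SE; 95% interval -0.13 to 0.14), with an adjusted p of 0.93. Against UNT the gene was slightly higher, by 0.24 ± 0.09 in ZIP and 0.23 ± 0.09 in SCR on the log2 scale (adjusted p = 0.018 and 0.019). Both of these calls were lost in DESeq2 (adjusted p = 0.178 and 0.185). The ZIP call was also lost without ZIP 1 (adjusted p = 0.0722) and the SCR call without SCR 1 (adjusted p = 0.0863).

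ALOX5 (ENSG00000012779, chromosome 10, 45374176 to 45446119, plus strand) had 45.0 and 44.0 CPM in ZIP, 23.1 and 21.7 CPM in SCR and 32.7 CPM in UNT. The ZIP libraries were the highest, the SCR libraries the lowest, and the untransduced library lay between them. The gene rose by 0.99 ± 0.06 on the log2 scale in ZIP against SCR (adjusted p = 2.1e-12) and by 0.44 ± 0.07 in ZIP against UNT (adjusted p = 3.2e-06). It fell by 0.55 ± 0.07 in SCR against UNT (adjusted p = 5.0e-07). ALOX5 was thus the only one of the 9 tested genes that rose in ZIP against both SCR and UNT, except that PTGES2 also did when library totals were used for scaling (adjusted p = 0.00577 against UNT). A long noncoding gene on the opposite strand, AL731567.1, lies within the same interval but shares 0 exonic bases with it and had 3 to 26 counts per library.

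ALOX5AP (ENSG00000132965, chromosome 13, 30713478 to 30764426, plus strand) presents arachidonic acid to ALOX5. Its level was 63.9 and 66.3 CPM in ZIP, 82.5 and 84.6 CPM in SCR and 60.9 CPM in UNT. The SCR libraries stood above all the others. It fell by 0.36 ± 0.04 on the log2 scale in ZIP against SCR (adjusted p = 1.6e-08) and rose by 0.46 ± 0.05 in SCR against UNT (adjusted p = 6.7e-09). In ZIP against UNT the difference was 0.09 ± 0.05 (95% interval 0.00 to 0.19), with an adjusted p of 0.089. The partners therefore moved in opposite directions between ZIP and SCR. Per exon length, ALOX5AP exceeded ALOX5 by 3.09 and 3.28 times in ZIP, 7.78 and 8.49 times in SCR and 4.04 times in UNT (ratios of TPM, a level per exon length scaled to the library).

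LTA4H (ENSG00000111144, chromosome 12, 96000828 to 96043520, minus strand) had 72.3 and 67.0 CPM in ZIP, 79.3 and 84.1 CPM in SCR and 81.3 CPM in UNT. The ZIP libraries were the lowest, and UNT lay within the range of SCR. The fall was 0.23 ± 0.04 on the log2 scale in ZIP against SCR (adjusted p = 6.0e-05) and 0.22 ± 0.05 in ZIP against UNT (adjusted p = 0.00055). SCR against UNT gave 0.01 ± 0.05 (95% interval -0.09 to 0.11; adjusted p = 0.90), and scaling by library totals instead of TMM gave 0.117 (adjusted p = 0.0351), a scaling that moved the median of all genes in that comparison from 0.016 to 0.126. Both noncoding antisense genes that overlap its exons had 2 counts or fewer in each library.

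LTC4S (ENSG00000213316, chromosome 5, 179793980 to 179796647, plus strand), the enzyme that commits leukotriene A4 to the cysteinyl leukotrienes, had 0 and 1 counts in ZIP, 3 and 4 counts in SCR and 2 counts in UNT. A floor of 3 counts equals 0.098 to 0.125 CPM per library, so only SCR 2 lies above it. The gene did not pass the filter and was not tested, and a difference between groups was not detectable at this depth. MGST2, a related membrane enzyme that can also make leukotriene C4, was well detected, at 50.7 and 51.5 CPM in ZIP, 49.1 and 47.4 CPM in SCR and 64.2 CPM in UNT. It was lower in both vector groups than in UNT, by 0.33 ± 0.05 in ZIP and 0.41 ± 0.05 in SCR on the log2 scale (adjusted p = 6.2e-06 and 2.0e-07). Between ZIP and SCR it did not pass (0.09 ± 0.04, adjusted p = 0.089).

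PTGS1 (ENSG00000095303, chromosome 9, 122370530 to 122395703, plus strand) is the cyclooxygenase regarded as constitutive in many tissues. It had 22.3 and 21.8 CPM in ZIP, 35.9 and 35.6 CPM in SCR and 27.1 CPM in UNT. The 3 groups did not overlap, with SCR highest and ZIP lowest. PTGS1 fell by 0.70 ± 0.06 on the log2 scale in ZIP against SCR (adjusted p = 7.8e-10), and fell by 0.30 ± 0.07 in ZIP against UNT (adjusted p = 0.0014). It rose by 0.40 ± 0.07 in SCR against UNT (adjusted p = 2.2e-05). The call against UNT in ZIP was not kept in DESeq2 (adjusted p = 0.0515).

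PTGS2 (ENSG00000073756, chromosome 1, 186671791 to 186680427, minus strand) is the inducible cyclooxygenase, known to respond to inflammatory signals and growth factors. It had 95 and 73 counts in ZIP, 279 and 274 counts in SCR and 20 counts in UNT, which is 3.10 and 3.02 CPM, 11 and 10.7 CPM and 0.835 CPM. The groups stood far apart, SCR above ZIP and ZIP above UNT. PTGS2 fell by 1.82 ± 0.13 on the log2 scale in ZIP against SCR (adjusted p = 3.2e-11). It was 12.9-fold higher in SCR than in UNT (log2 3.69 ± 0.31, adjusted p = 4.8e-13) and 3.66-fold higher in ZIP than in UNT (1.87 ± 0.32, adjusted p = 3.3e-06). Its fold changes against UNT rest on 20 counts in a single library. In SCR, where it was highest, 7 of 8 monocyte markers were also higher than in UNT, beside 32.7% of all genes tested. In ZIP 5 of them were higher than in UNT, beside 28.5% of all genes tested. The part of these markers in the PTGS2 level was not tested.

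The balance of the cyclooxygenases differed between groups. Per exon length PTGS1 exceeded PTGS2 by 6.54 and 6.56 times in ZIP, 2.97 and 3.04 times in SCR and 29.5 times in UNT (ratios of TPM). The UNT ratio rests on 20 counts of PTGS2 in a single library and is imprecise. PTGS1 was the more abundant in every library, and its lead was smallest in SCR.

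PTGES2 and PTGES3 encode enzymes with prostaglandin E synthase activity. PTGES3 is also known as p23, a co-chaperone of HSP90, so its level need not follow prostaglandin synthesis. PTGES2 (ENSG00000148334, chromosome 9, 128120693 to 128128462, minus strand) had 100 and 103 CPM in ZIP, 75.1 and 78.2 CPM in SCR and 95.7 CPM in UNT. SCR was the lowest group and UNT lay just under ZIP. It rose by 0.40 ± 0.03 on the log2 scale in ZIP against SCR (adjusted p = 1.0e-09) and fell by 0.32 ± 0.04 in SCR against UNT (adjusted p = 4.2e-07). PTGES3 (ENSG00000110958, chromosome 12, 56663341 to 56688408, minus strand) had 711 and 721 CPM in ZIP, 584 and 578 CPM in SCR and 724 CPM in UNT. Again the SCR libraries were the lowest. PTGES3 rose by 0.30 ± 0.02 in ZIP against SCR (adjusted p = 2.0e-10) and fell by 0.32 ± 0.03 in SCR against UNT (adjusted p = 2.5e-10). In ZIP against UNT neither passed, with 0.08 ± 0.04 for PTGES2 (adjusted p = 0.077) and -0.01 ± 0.03 for PTGES3 (adjusted p = 0.65). The 5 annotated processed pseudogenes of PTGES3 together had 12 and 10 counts in ZIP, 22 and 19 counts in SCR and 4 counts in UNT, against 14810 to 21775 for PTGES3, but the treatment of reads that fit both is not stated. PTGES, the inducible membrane-bound prostaglandin E synthase, had at most 1 count in any library.

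TBXAS1 (ENSG00000059377, chromosome 7, 139777051 to 140020325, plus strand), thromboxane synthase, had 14.9 and 14.9 CPM in ZIP, 31.4 and 30 CPM in SCR and 13.4 CPM in UNT. The SCR libraries stood far above the others. It fell by 1.04 ± 0.06 on the log2 scale in ZIP against SCR (adjusted p = 1.1e-11) and rose by 1.19 ± 0.09 in SCR against UNT (adjusted p = 2.2e-11). ZIP against UNT gave 0.15 ± 0.10 (95% interval -0.05 to 0.35; adjusted p = 0.19). Thromboxane synthase is best known from platelets and monocytes. Among the 6 megakaryocyte and platelet markers 1 was higher in ZIP than in SCR and 0 were lower, beside 32.2% higher and 33.2% lower over all genes tested. The 1 higher was ITGA2B (5.29 and 5.34 CPM in ZIP, 3.08 and 2.88 CPM in SCR and 4.42 CPM in UNT). GP1BA and GP6 did not pass, with -0.51 ± 0.37 and 0.20 ± 0.35 on the log2 scale (adjusted p = 0.23 and 0.62). PPBP was at 0 counts in all libraries. Of the 8 monocyte markers 6 were lower in ZIP than in SCR, CD14 among them, beside 33.2% of all genes tested. LYZ was higher in ZIP than in SCR (1390 and 1390 CPM in ZIP, 1120 and 1120 CPM in SCR and 323 CPM in UNT). The part of these markers in the TBXAS1 result was not tested. HIPK2 overlaps the TBXAS1 interval on the opposite strand with 0 shared exonic bases, and had 1011 and 754 counts in ZIP, 777 and 823 counts in SCR and 330 counts in UNT.

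In SCR against UNT, which shares the SCR libraries with the first comparison and the single UNT library with the third, 5 of the 9 tested genes were higher and 3 lower in SCR. The fit assumes that the single UNT library varies like the others. Background calls in that comparison were 64.9% of 15832 genes, 32.7% higher and 32.2% lower. In ZIP against UNT 3 were higher and 2 lower, beside a background of 58.2%, 28.5% higher and 29.7% lower. The 3 higher in ZIP than in UNT were PTGS2, ALOX5 and PLA2G4A, and the 2 lower were PTGS1 and LTA4H. By DESeq2 only 3 genes were called in ZIP against UNT, since PLA2G4A and PTGS1 missed the threshold.

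**Figure D2:**
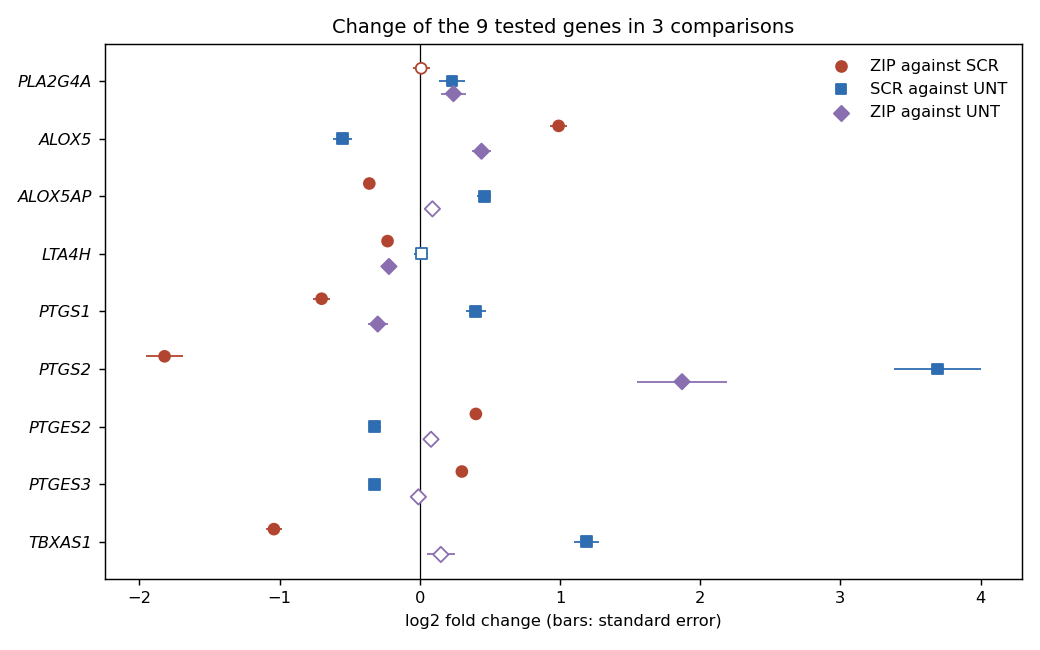
Log2 fold changes of the 9 tested genes (horizontal axis, bars show the standard error) in ZIP against SCR (circles), SCR against UNT (squares) and ZIP against UNT (diamonds). Filled symbols passed an adjusted p of 0.05. PTGS2 has the widest spread of values, from -1.82 in ZIP against SCR to 3.69 in SCR against UNT.

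Levels of different genes can be compared only per length, so they were also expressed as TPM with the annotated exon length. PTGES3 was the most abundant of the 10 genes in every library, at 706 and 719 TPM in ZIP, 645 and 632 TPM in SCR and 622 TPM in UNT. ALOX5AP came next at 126 and 131 TPM in ZIP, 181 and 183 TPM in SCR and 104 TPM in UNT, followed by PTGES2. PTGES2 had 111 and 115 TPM in ZIP, 92.7 and 95.6 TPM in SCR and 92.0 TPM in UNT. TPM was not TMM-scaled, so the order of groups can differ from that in CPM. PTGES3 and PTGES2 were lowest in UNT by TPM but lowest in SCR by CPM. LTA4H in UNT (32.3 TPM) lay within ZIP (33.2 and 30.9 TPM), but within SCR by CPM. PTGS2 was the lowest of the 9 tested genes in every library, at 1.99 and 1.94 TPM in ZIP, 7.84 and 7.52 TPM in SCR and 0.463 TPM in UNT. The place of ALOX5 changed most: with 40.7 and 40.0 TPM it was the fourth most abundant in ZIP, with 23.2 and 21.6 TPM the seventh in SCR, and with 25.6 TPM the fifth in UNT. In SCR the TPM values of ALOX5 and PTGS1 (23.3 and 22.8) overlapped, so their order there is not settled by these libraries. No other neighbours among the 9 overlapped in ZIP or SCR. ALOX5 exceeded PTGS1 by 3.13 and 3.14 times in ZIP, stood at 0.998 and 0.945 times its level in SCR, and exceeded it by 1.88 times in UNT. The exon length is the union over all annotated transcripts, which lowers the TPM of genes such as LTA4H (7350 bases) if their long forms are not used here.

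**Figure D3:**
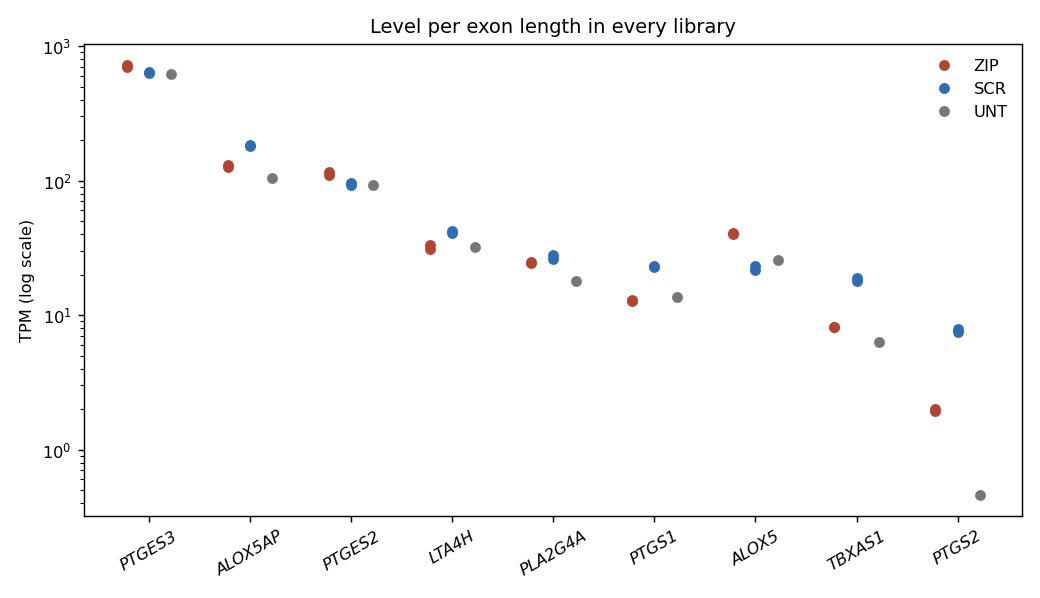
TPM on a log axis for the 9 tested genes in every library, ordered by their mean in SCR. ZIP points lie left, SCR in the middle and UNT right within each gene. The order from PTGES3 down to PTGS2 spans 622 to 0.463 TPM in UNT.

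Promoter sequences of 9 of the 10 genes were found in RefSeq (GRCh38.p14, 250 bases before to 50 after the start site). None was found for ALOX5, so its promoter was not searched. The sequences found were searched on both strands for 6 motifs. The TATA box, spelled TATAAA, was in 11.5% of 35116 RefSeq promoters of the same length. The GC box that binds SP1, spelled GGGCGG, was in 45.0% of them. The core of the cyclic AMP response element, spelled TGACG, was in 24.6%. A C/EBP site with the letters TTNCGCAA was in 0.891%, an NF-kB-type site with the letters GGGNNNNCCC in 17.8%, and the core bound by PU.1, GAGGAAGT, in 2.59%. Matches are in capitals in the 4 promoters below, those of the genes called lower in ZIP than in SCR and higher in SCR than in UNT, and none of their matches overlap. RefSeq gives PTGS1 a second promoter, at chr9:122375052-122375351, which is not printed.
PTGS2, chr1:186680374-186680673, minus strand: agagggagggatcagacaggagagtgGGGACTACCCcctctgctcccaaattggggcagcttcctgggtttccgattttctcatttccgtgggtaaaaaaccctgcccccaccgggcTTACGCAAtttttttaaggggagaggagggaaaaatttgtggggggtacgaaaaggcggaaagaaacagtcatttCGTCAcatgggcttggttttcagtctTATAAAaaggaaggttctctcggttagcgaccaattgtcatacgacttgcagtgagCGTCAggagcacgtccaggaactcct
PTGS1, chr9:122370283-122370582, plus strand: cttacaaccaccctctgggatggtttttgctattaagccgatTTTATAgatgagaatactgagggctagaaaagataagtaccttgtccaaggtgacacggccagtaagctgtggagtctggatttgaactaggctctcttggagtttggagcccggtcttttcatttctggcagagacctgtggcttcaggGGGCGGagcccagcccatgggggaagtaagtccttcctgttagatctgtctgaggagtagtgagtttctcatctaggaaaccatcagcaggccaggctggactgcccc
TBXAS1, chr7:139829014-139829313, plus strand: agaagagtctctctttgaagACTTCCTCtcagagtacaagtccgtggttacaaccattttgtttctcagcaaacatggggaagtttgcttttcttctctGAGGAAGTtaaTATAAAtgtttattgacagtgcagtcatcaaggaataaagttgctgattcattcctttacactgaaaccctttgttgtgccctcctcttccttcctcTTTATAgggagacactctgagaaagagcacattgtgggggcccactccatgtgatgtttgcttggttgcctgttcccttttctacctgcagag
ALOX5AP, chr13:30713235-30713534, plus strand: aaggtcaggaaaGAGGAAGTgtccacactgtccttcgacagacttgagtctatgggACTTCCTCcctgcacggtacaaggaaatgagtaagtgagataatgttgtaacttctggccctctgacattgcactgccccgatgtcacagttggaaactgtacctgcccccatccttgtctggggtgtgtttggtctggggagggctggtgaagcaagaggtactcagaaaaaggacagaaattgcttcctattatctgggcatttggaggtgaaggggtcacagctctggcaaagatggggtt
In PTGS2, which had the widest range of log2 fold changes among the 9 tested genes, a TATA box stands at -32 to -27, where such a box is usually found. A cyclic AMP core lies at -58 to -54 and another at 24 to 28, a C/EBP site at -133 to -126 and an NF-kB-type site at -224 to -215. These are the kinds of element through which PTGS2 is known to be induced. The NF-kB-type site and the cyclic AMP core are not particular to the printed promoters. PTGES3, higher in ZIP than in SCR, has an NF-kB-type site at -121 to -112 and a cyclic AMP core at -21 to -17. PTGES2, also higher in ZIP, has NF-kB-type sites at -5 to 4 and, in another promoter, at -237 to -228. The printed PTGS1 promoter has a GC box at -58 to -53 and TATAAA only in reverse at -208 to -203, and the second one has a GC box in reverse at -202 to -197. TBXAS1 and ALOX5AP each hold the PU.1 core at 2 places, at -230 to -223 and -151 to -144 in TBXAS1 and at -238 to -231 and -194 to -187 in ALOX5AP. PU.1 is a transcription factor of the myeloid lineage, and 0.057% of all promoters hold this core at 2 or more places. The motifs were chosen with earlier results of these data known, so this share is a description and not a test. The RefSeq start site behind the TBXAS1 window lies inside the longer GENCODE gene. A match says nothing of whether a factor was bound in these cells.

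The genes around the synthesis enzymes were set beside them by role. These lists were chosen with earlier results of these data known, so their counts are a description and not a test. Together 89 further genes were listed, 63 were tested in ZIP against SCR, and of these 13 were higher and 36 lower (median log2 fold change -0.41). Against UNT, 34 of 64 were higher and 13 lower in SCR (median 0.57), and 25 were higher and 21 lower in ZIP (median 0.07). Over all genes tested, 32.2% were higher and 33.2% lower in ZIP against SCR, 32.7% higher and 32.2% lower in SCR against UNT, and 28.5% higher and 29.7% lower in ZIP against UNT, with medians of -0.002, 0.016 and 0.002.

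Genes that make arachidonic acid or move it into and out of phospholipids were lower in ZIP than in SCR in 10 of 12 cases and higher in 1 (median -0.88), beside 33.2% lower and 32.2% higher over all genes tested. FADS1, the desaturase that forms arachidonic acid, had 2.35 and 2.52 CPM in ZIP, 326 and 335 CPM in SCR and 14.9 CPM in UNT. ZIP was below UNT and SCR far above it, and the log2 fold change in ZIP against SCR was -7.08 ± 0.10 (adjusted p = 6.1e-26). ACSL4, which activates arachidonic acid to its coenzyme A ester, had 107 and 112 CPM in ZIP, 173 and 169 CPM in SCR and 103 CPM in UNT. MBOAT7, which returns it to phosphatidylinositol, had 106 and 104 CPM in ZIP, 182 and 182 CPM in SCR and 123 CPM in UNT. LPCAT3 had 33.2 and 33.2 CPM in ZIP, 63.8 and 65.0 CPM in SCR and 60.9 CPM in UNT, so here ZIP was the group that stood apart. LPCAT2, which also makes platelet-activating factor, was the member that rose in ZIP against SCR, by 0.40 ± 0.03.

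Among 18 other phospholipases and lipases 10 were tested, and 2 were higher and 5 lower in ZIP than in SCR (median -0.41). That is 7 called of 10, near the 65.4% called over all genes tested. DAGLA, a diacylglycerol lipase, had 0.588 and 0.496 CPM in ZIP, 4.85 and 5.25 CPM in SCR and 0.0417 CPM in UNT, which is 1 count. PLA2G7, the plasma platelet-activating factor hydrolase, had 2.32 and 2.15 CPM in ZIP, 4.89 and 5.64 CPM in SCR and 0.292 CPM in UNT. MGLL, whose product pool feeds prostaglandin synthesis in mouse brain, moved the other way, with 27.6 and 27.0 CPM in ZIP, 15.1 and 13.4 CPM in SCR and 30.6 CPM in UNT. PLA2G6, the calcium-independent phospholipase A2, passed in no comparison (-0.02 ± 0.07 in ZIP against SCR, adjusted p = 0.79).

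Of 5 other lipoxygenases only ALOX12 was tested, and it was lower in ZIP than in SCR (adjusted p = 1.8e-05), with 2.03 and 2.15 CPM in ZIP, 4.22 and 4.12 CPM in SCR and 2.09 CPM in UNT. ALOX15 had at most 8 counts in any library. Among 13 other terminal synthases 8 were tested in ZIP against SCR, with 1 higher and 3 lower, a share of calls below the 65.4% over all genes tested. HPGDS, the haematopoietic prostaglandin D synthase, had 0.163 and 0.165 CPM in ZIP, 1.46 and 1.25 CPM in SCR and 0.835 CPM in UNT. MGST3 had 47.3 and 49.3 CPM in ZIP, 91.1 and 90.2 CPM in SCR and 42.9 CPM in UNT.

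Of 10 genes for inactivation and transport 7 were tested, and 4 were higher and 2 lower in ZIP than in SCR (median 0.33), beside 32.2% higher and 33.2% lower over all genes tested. HPGD, the dehydrogenase that begins prostaglandin breakdown, had 0.555 and 0.703 CPM in ZIP, 4.22 and 3.31 CPM in SCR and 5.05 CPM in UNT. It fell by 2.59 ± 0.28 in ZIP against SCR (adjusted p = 7.3e-09) and by 3.01 ± 0.29 in ZIP against UNT (adjusted p = 8.3e-10), while SCR against UNT did not pass (-0.42 ± 0.19, adjusted p = 0.051). PTGR1, which inactivates leukotriene B4, had 27.8 and 25.9 CPM in ZIP, 20.4 and 21.6 CPM in SCR and 22.0 CPM in UNT. ABCC4, an exporter of prostaglandins, had 69.0 and 65.1 CPM in ZIP, 52.6 and 48.7 CPM in SCR and 50.2 CPM in UNT. CYP4F3, the hydroxylase that inactivates leukotriene B4 in neutrophils, was lower in both vector groups, with 3.10 and 2.48 CPM in ZIP, 2.29 and 2.37 CPM in SCR and 6.30 CPM in UNT.

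Of 16 eicosanoid receptors and sensors 10 were tested, and 0 were higher and 7 lower in ZIP than in SCR (median -0.60). The 7 called of 10 are near the 65.4% called over all genes tested, of which 32.2% were higher and 33.2% lower. LTB4R, the high-affinity leukotriene B4 receptor, had 36.8 and 38.8 CPM in ZIP, 42.2 and 41.1 CPM in SCR and 49.3 CPM in UNT. It overlaps LTB4R2, and reads of the pair may be shared. CYSLTR1, a cysteinyl leukotriene receptor, had 28.8 and 32.5 CPM in ZIP, 59.4 and 61.4 CPM in SCR and 31.2 CPM in UNT, with ZIP around the untransduced level. PTGER4, a prostaglandin E2 receptor, had 61.8 and 60.6 CPM in ZIP, 84.2 and 84.7 CPM in SCR and 23.2 CPM in UNT. PTGER2, another receptor of the same ligand, had 38.0 and 36.5 CPM in ZIP, 50.2 and 49.0 CPM in SCR and 21.5 CPM in UNT. Both therefore stood above UNT in each vector group and highest in SCR, in the order seen for PTGS2. TBXA2R, the thromboxane receptor, had 0.229 and 0.662 CPM in ZIP, 0.828 and 0.778 CPM in SCR and 0.376 CPM in UNT.

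Known regulators and partners of ALOX5 and PLA2G4A were higher in ZIP than in SCR in 5 of 15 cases and lower in 8 (median -0.19), beside 32.2% higher and 33.2% lower over all genes tested. COTL1, an actin-binding protein that stabilises 5-lipoxygenase, had 479 and 488 CPM in ZIP, 440 and 428 CPM in SCR and 689 CPM in UNT. VDR, the vitamin D receptor, whose ligand is used with TGF-beta to raise ALOX5 in myeloid lines, had 56.7 and 56.5 CPM in ZIP, 39.2 and 37.3 CPM in SCR and 41.5 CPM in UNT. SMAD3, of the TGF-beta pathway, had 36.8 and 38.7 CPM in ZIP, 67.9 and 66.3 CPM in SCR and 16.5 CPM in UNT, highest in SCR. ANXA1, a protein known for its inhibition of phospholipase A2, had 90.9 and 90.0 CPM in ZIP, 150 and 151 CPM in SCR and 79.8 CPM in UNT.

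**Figure D4:**
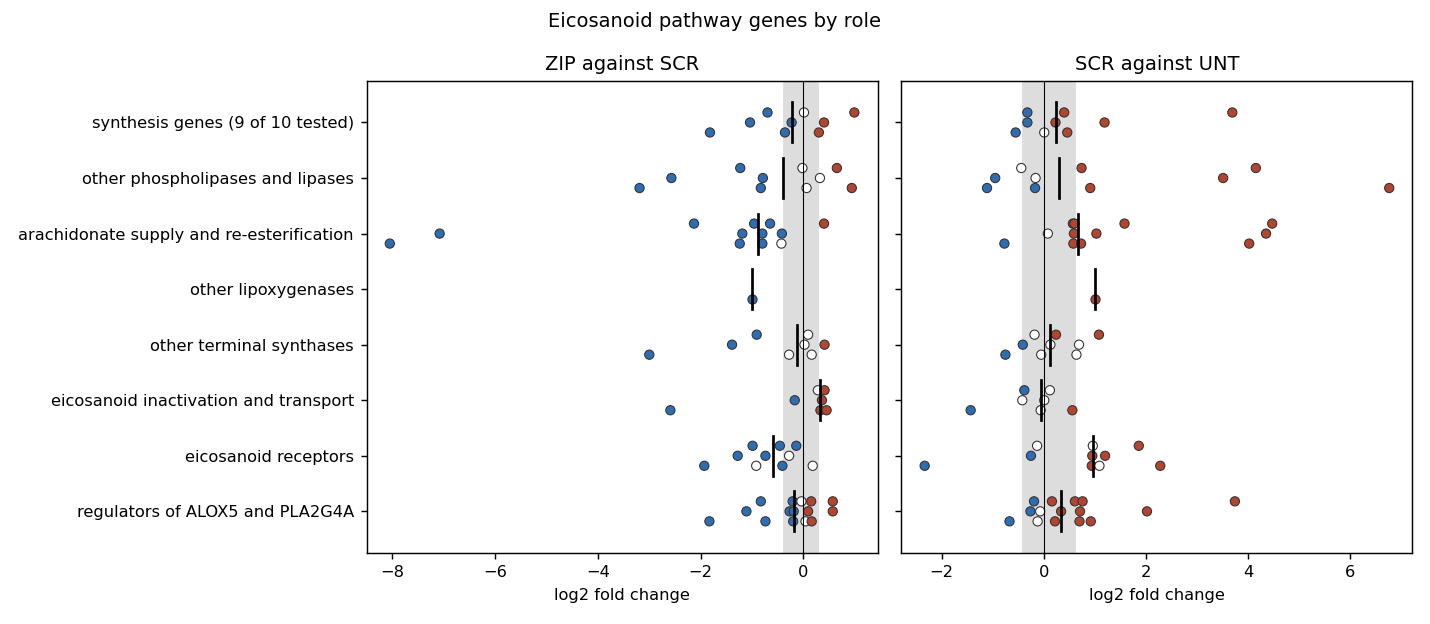
Log2 fold changes by role in ZIP against SCR (left) and SCR against UNT (right). Each point is a tested gene, red if called higher, blue if called lower and white if not called. Vertical bars are list medians and the grey band runs from the first to the third quartile of all genes tested. The supply list has medians of -0.88 and 0.66 on the left and right.

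The protein-coding genes whose profile over the 5 libraries was most like that of ALOX5, out of 9457 with a mean of at least 5 CPM, were KLHL21, TTC3 and MPP6. Their centred log2 CPM profiles differed from it by a root mean square of 0.0126, 0.0378 and 0.0416. KLHL21 had 101 and 99.3 CPM in ZIP, 50.8 and 48.2 CPM in SCR and 73.3 CPM in UNT. For PTGS1 they were RHOQ, ARPC5 and CRTC2, at 0.0186, 0.0233 and 0.0265. With 3 groups and close replicates, many genes can share such a profile.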

How the data were processed

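The deposited table holds raw read counts per Ensembl gene ID, not normalized by the authors, in 5 columns matched to libraries by the description label. Columns of other samples numbered 0. Bowtie2 and featureCounts are named per the submitters' processing notes. The series' design text names TopHat 2, Cufflinks and HTSeq. Which of these made the counts, and with which build, annotation and strand setting, is not stated. Per the labels, a TruSeq Small RNA kit was used and libraries were read on a HiSeq 2500.

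Symbols, coordinates and exon lengths came from GENCODE 29 (GRCh38), which named 44305 of 51055 IDs. RefSeq synonyms named PRXL2B, and MRC1 was not matched. The filterByExpr function (count of 10, total of 15) removed low genes, and counts were TMM-scaled (factors 0.956 to 1.03). They were tested with the edgeR 4.0.16 quasi-likelihood test (R 4.3.3) and Benjamini-Hochberg adjustment over all genes at 0.05. ZIP against SCR used 4 libraries. The comparisons with UNT used all 5, so UNT is assumed to vary like the others, and each fit had 2 residual degrees of freedom. Standard errors and 95% intervals are those of the fitted coefficient. The ZIP against SCR test was checked on simulated counts, and the comparisons with UNT were not. Floors cover counting error only.

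The 10 genes, the further lists and the promoter motifs were chosen with earlier results of these data known. Named are the 10 genes, listed genes with a group mean of at least 1 CPM, and the 3 profiles most like ALOX5 and PTGS1. LTC4S, PTGES, ALOX15, TBXA2R and marker genes are outside that naming rule or below it and are given for their roles. Matches to the microRNA seed in 3' UTRs are not reported here. The alternatives tried were library totals, DESeq2 1.42.0, its size factors in edgeR, no filter, each replicate left out, a replicate block and all 5 libraries.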

Additional observations from a re-analysis of the deposited data

How the results depend on the processing

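Of 27 log2 fold changes of the 9 tested genes, those of ALOX5, ALOX5AP, LTA4H, PTGS1, PTGS2, PTGES2, PTGES3 and TBXAS1 in ZIP against SCR kept their direction and their call under all alternatives run, and 8 genes were called in each. The value of PLA2G4A there, near 0, was -0.053 with library totals and ran from -0.031 (without SCR 2) to 0.048 (without SCR 1) when 1 library was left out, with -0.021 without ZIP 1. In SCR against UNT, LTA4H ran from -0.027 (without SCR 2) to 0.05 (without SCR 1) when 1 library was left out, and 7 to 9 of the genes were called. In ZIP against UNT, PTGES3 was 0.036 with library totals, DESeq2 called 3 genes rather than 5, and library totals added ALOX5AP (adjusted p = 0.0105) and PTGES2 (adjusted p = 0.00577), giving 7. The cause of these shifts was not tested. Over all genes, 7644 to 9766 were called in ZIP against SCR, 7696 to 10556 in SCR against UNT and 6333 to 9226 in ZIP against UNT. LTC4S has too few counts for any of these fits to be reported. Replicate numbers are shared between ZIP and SCR, but the labels do not say that they mark a shared culture or day. The deviations of same-numbered libraries had a correlation of 0.0791 across 8804 genes. With the replicate number as a block 9709 genes were called and 8 of the 9 genes here. Adding the pseudogene counts to PTGES3, an alternative chosen after seeing the data, left its log2 fold change in ZIP against SCR at 0.301.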
